A study of Mus musculus with 168 samples.

Results

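The Mir124 genes of the mouse hippocampus were examined across 7 genotypes and 3 ages. They are the rows of the deposited short RNA table whose transcript identifiers map to Mir124a-1, Mir124a-2 and Mir124a-3 in the GENCODE M21 annotation of the GRCm38 build, 3 of 1626 transcripts in all, and all 3 passed the filter on low counts that left 470 transcripts for testing. The animals were C57BL/6 mice heterozygous for 1 knock-in Huntingtin (Htt) allele that carries a human HTT exon 1, beside 1 endogenous mouse allele. The alleles Q20, Q80, Q92, Q111, Q140 and Q175 are named for the length of the CAG repeat in that exon. Wild-type (WT) animals were littermates from the Q20 line and carried no knock-in allele, and Q20 and WT served as controls. The Q175 allele arose by spontaneous expansion of the repeat in the Q140 line, so these alleles share their knock-in construct, and each line was crossed to C57BL/6J. No other agent or allele was given. RNA came from whole hippocampus at 2, 6 and 10 months (2m, 6m, 10m), with 8 libraries in each of the 21 groups, from females and males.

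MiR-124 is among the most abundant microRNAs of the brain and is made mainly in neurons. Several genomic loci encode precursors that give the same mature microRNA, which pairs with sites in messenger RNAs of non-neuronal genes, among them the splicing regulator Ptbp1, and lowers their output as neurons mature. In non-neuronal cells the repressor REST keeps these loci silent. Because the mature sequence is shared, a short read of it does not by itself show which locus it came from.

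The loci lie on different chromosomes, all on the plus strand of GRCm38. Mir124a-1 is at chr14:64590657-64590741 within Mir124a-1hg, a long non-coding host gene, and is exonic in 1 of its 4 annotated transcripts, partly exonic in 1 and outside the other 2. Mir124a-2 is at chr3:17795662-17795770 within Mir124-2hg, intronic in 5 of 7 transcripts, partly exonic in 1 and outside 1. Mir124a-3 is at chr2:180894040-180894107. No annotated gene contains it, and it overlaps the non-coding gene Gm27032 by 3 bases. Mir3078, another microRNA, lies in the Mir124a-1 host gene at chr14:64591185-64591271, 443 bases after Mir124a-1. Mir3078 is exonic in 1 annotated transcript of that gene, the one in which Mir124a-1 is exonic, and outside the other 3. It was chosen for comparison after its values had been seen, because it comes from the same host gene and is counted in a row of its own.

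Libraries held 2117539 to 9099227 estimated counts (median 3374648). Levels are given as CPM, counts relative to the library total after scaling by the trimmed mean of M values (TMM) over all libraries. The neuronal markers Mir124a-1, Mir128-1, Mir128-2, Mir9-2 and Mir9-3 were detected in all libraries of the 21 groups. Among markers of other tissues, the liver microRNA Mir122 had a median of 0.874 CPM on library totals. The heart and skeletal muscle microRNAs Mir208a, Mir208b, Mir206 and Mir133b had medians of 3.003, 1.63, 0.293 and 0 CPM. These were low beside Mir124a-1 (6071 CPM on this scale). The vessel markers Mir126a, Mir143 and Mir145a had medians of 7749, 9775 and 219 CPM. The choroid plexus marker Mir204 had 6532 CPM, and the other choroid plexus and epithelial markers 0.643 to 36.3 CPM. The library names carry a code that begins with L and a library number, and the sources used here do not state what the L codes mark. Batch was assumed from these names. At 6m it was the block of library numbers, and at the other ages it was the L code. In the larger 6m block the L codes were not all alike. All WT and Q175 libraries of 6m, and no others, form library block A, so at 6m the fitted Q175 contrast is in effect against WT alone and the other alleles are in effect against Q20 alone.

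The first question was how the reads of the family are divided among its rows. In the table of estimated counts nearly all went to Mir124a-1, which held 97.1% to 99.1% of the family's counts in a library (median 98.4%). Mir124a-3 held 0.816% to 2.84% (median 1.51%) and Mir124a-2 0% to 0.196% (median 0.0719%). Per kilobase of annotated transcript, the median levels over libraries were 71589 CPM for Mir124a-1, 1377 CPM for Mir124a-3 and 42.4 CPM for Mir124a-2, in that order in all libraries. By total count the rows ranked 36, 206 and 365 of the 1626 transcripts.

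The deposited RPKM values (reads per kilobase and per unit of sequencing depth) gave the copies other proportions. In the 152 libraries outside block A, the RPKM of Mir124a-2 was 0.779 to 0.780 of that of Mir124a-1, and the ratio of the annotated lengths of Mir124a-1 and Mir124a-2 is also 0.780. The RPKM of Mir124a-3 was 0.976 to 0.977 of that of Mir124a-1 in these libraries. In the 16 libraries of block A the RPKM ratios were 0 to 0.00131 and 0.0111 to 0.0196, and they differed from the ratios of the estimated counts by a fixed factor of 0.780 for Mir124a-2 (15 libraries with over 5 counts) and 0.977 for Mir124a-3. The first is the ratio of the annotated lengths. The second is not, since the annotated lengths of 85 and 68 bases would give 1.25, and it corresponds to a length of 87.0 bases for Mir124a-3, at which its median level per kilobase would be 1076 CPM rather than 1377 CPM. Outside block A the RPKM ratios lay within 0.001 of these factors, as equal read numbers for all 3 copies would give. The RPKM of Mir124a-1 itself had a median of 82496 in block A and 47840 in the other libraries. Whether reads were shared out among the copies or counted at each of them in the RPKM table was not tested, and the levels of single copies depend on which table is read.

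**Figure D1:**
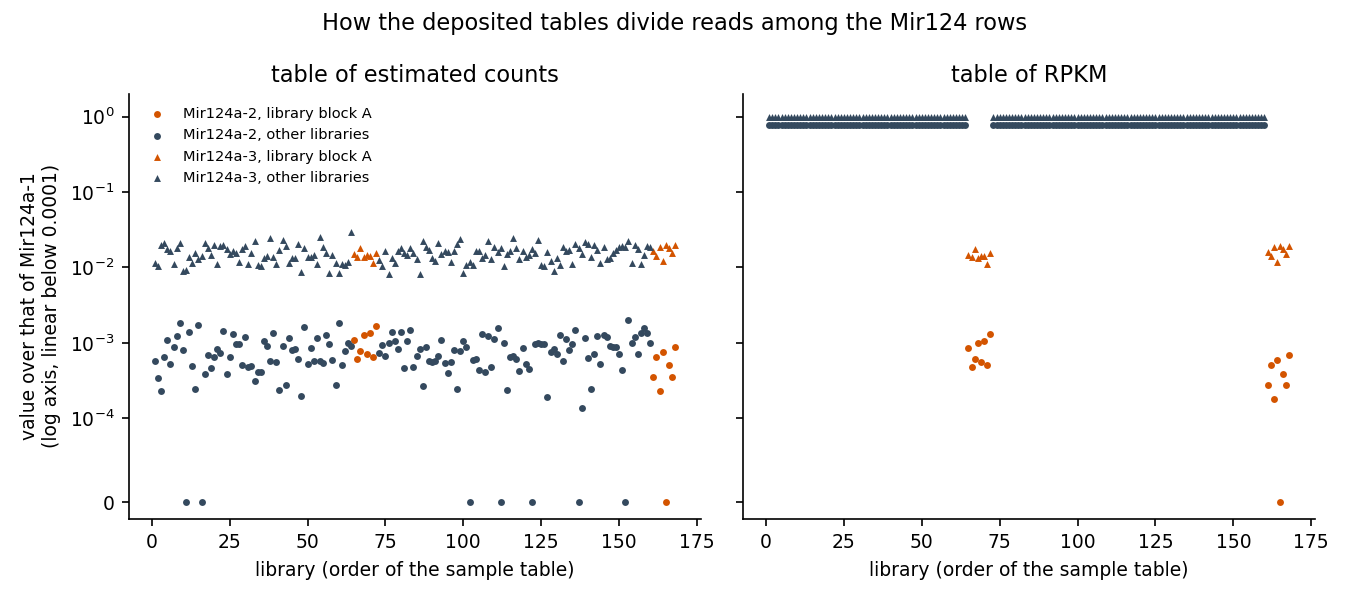
Value of Mir124a-2 (circles) and of Mir124a-3 (triangles) divided by that of Mir124a-1 in each library, from the estimated counts (left) and from the RPKM table (right), on a log axis that is linear below 0.0001. In the counts the ratio of Mir124a-3 was 0.00823 to 0.0293 outside library block A (dark), where the RPKM ratio was 0.976 to 0.977, whereas within block A (orange) both tables gave ratios of like size.

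Mir124a-1 was steady from animal to animal. Over the libraries of all groups it ran from 4357 to 8447 CPM (median 6085 CPM), and its coefficient of variation within a group had a median of 7.81% (2.79% to 11.8%). It took 0.611% of all counts, with 10860 to 41589 estimated counts a library, so counting error was small beside the spread of the animals. The rarer rows varied more. The median coefficient of variation within a group was 23.1% for Mir124a-3, with 99.2 to 788 estimated counts a library. For Mir124a-2 it was 49.3%, with 0 to 54.8 estimated counts.

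At 2m the Mir124a-1 means (CPM ± SD, n = 8 in each group) were 6165 ± 191 in WT, 6136 ± 479 in Q92, 6124 ± 619 in Q140, 6104 ± 398 in Q80, 5934 ± 369 in Q175, 5835 ± 688 in Q20 and 5526 ± 569 in Q111. The highest mean was 1.12 times the lowest. The order did not follow CAG length, and neighbours in it all overlapped.

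At 6m the order was WT (7182 ± 460), Q175 (6909 ± 788), Q111 (6356 ± 470), Q20 (6258 ± 662), Q140 (6189 ± 512), Q80 (6050 ± 700) and Q92 (5708 ± 585), again CPM ± SD with n = 8. The groups in front are the pair that makes up library block A, whose median was 6929 CPM against 6177 CPM in the other 6m libraries, so genotype and block cannot be told apart in that step. Within each block the groups overlapped.

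At 10m the order was Q92 (6190 ± 326), Q80 (6081 ± 481), WT (6056 ± 446), Q111 (6047 ± 448), Q20 (5905 ± 165), Q140 (5610 ± 412) and Q175 (5190 ± 445), as CPM ± SD with n = 8. The 2 longest repeats were last. Between neighbours in these orders, 18 pairs over the 3 ages, 0 differed by a 2-sided exact permutation test after Benjamini-Hochberg adjustment (smallest adjusted p = 0.498) and 1 did before it (Q20 above Q140 at 10m, exact p = 0.0277). For Mir124a-2 and Mir124a-3 the same test gave 0 of 18 pairs each after adjustment, with 1 and 0 at an unadjusted p under 0.05.

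**Figure D2:**
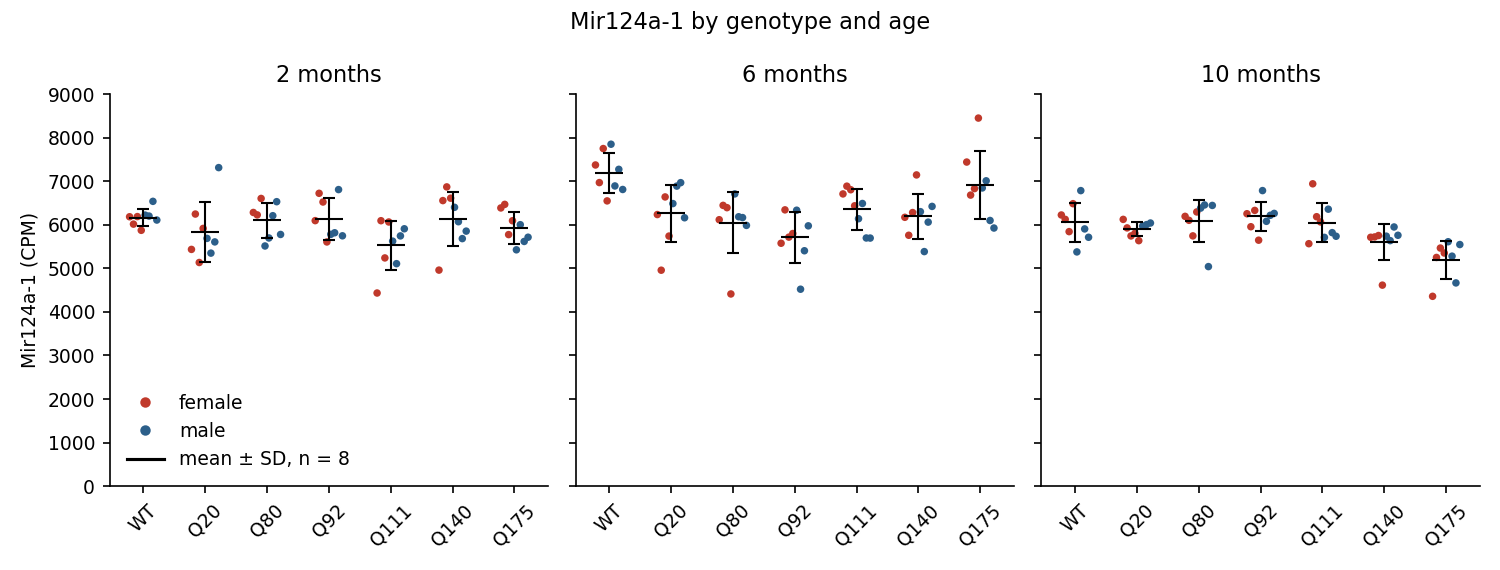
Mir124a-1 in CPM for each library by genotype at 2, 6 and 10 months (females red, males blue; bars show the mean and SD of 8 libraries). At 10m the Q175 libraries lie between 4357 and 5610 CPM and the controls between 5376 and 6783 CPM, whereas at 6m the WT and Q175 groups, both of library block A, stand above the rest.

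In Q175 hippocampus at 10m, Mir124a-1 was lower than in controls. The 8 Q175 libraries had 4357 CPM as the lowest, 5315 CPM as the median and 5610 CPM as the highest, and the 16 Q20 and WT libraries 5376, 5949 and 6783 CPM. All 8 Q175 libraries lay below the median of the controls and 5 of them below every control, so the groups overlapped at their edges. Of the 48 libraries of all other genotypes at 10m, 2 lay below the Q175 median. In the edgeR fit with sex and batch, Mir124a-1 fell by 0.21 on the log2 scale (SE 0.05, 95% interval -0.31 to -0.12, adjusted p = 0.00283), a change of -13.6%. It ranked 24 by p among 470 transcripts, of which 11.9% were called in this contrast and 6.38% were called lower. Within the 3 batches the difference in mean log2 CPM was -0.27 (3 Q175 against 8 control libraries), -0.18 (3 against 6) and -0.15 (2 against 2). With all rows of the family summed to 1, the fall was by 0.21 (adjusted p = 0.00254), and limma on the log2 RPKM values, added after seeing the data, gave -0.21 (adjusted p = 0.0049). In a bulk sample of tissue, fewer cells of a type and less RNA per cell cannot be told apart.

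The same allele gave smaller differences at the younger ages. At 2m the Q175 libraries had 5425, 5887 and 6467 CPM (lowest, median and highest) and the controls 5133, 6061 and 7311 CPM. The log2 difference was -0.01 (95% interval -0.11 to 0.09, edgeR adjusted p = 0.987), and edgeR called 0% of transcripts (8 at an unadjusted p under 0.05), as did DESeq2 (0). At 6m the Q175 libraries had 5924, 6837 and 8447 CPM and the 8 WT libraries 6547, 7119 and 7848 CPM. The log2 difference was -0.06 (95% interval -0.19 to 0.07, adjusted p = 0.805), where 3.4% of transcripts were called. With no batch term its sign turned (0.04). A p that misses the threshold does not show that the groups were alike, but these intervals bound the change at 2m and 6m.

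No other allele was called for Mir124a-1. At 10m the difference from Q20 and WT was 0.03 for Q80, 0.05 for Q92, 0.01 for Q111 and -0.08 for Q140 (log2, edgeR SE 0.04 to 0.05, adjusted p = 0.808, 1, 0.996 and 0.443). In Q140 the 95% interval was -0.17 to 0.00 and the unadjusted p 0.0606. The 8 Q140 libraries had 4614, 5729 and 5949 CPM (lowest, median and highest). The lowest stood apart from the other 7, which began at 5635 CPM. Across all 470 transcripts, edgeR called 0% at 10m in each of Q80, Q92, Q111 and Q140 (40, 14, 11 and 42 at an unadjusted p under 0.05), and DESeq2 called 0 in each. At 2m and 6m the differences for these 4 alleles ran from -0.15 in Q92 at 6m to 0.05 in Q92 at 2m, and none passed the test after adjustment (edgeR called 0.213% of transcripts in Q111 at 6m and 0% in the other 7 comparisons, with 22 to 35 at an unadjusted p under 0.05, and DESeq2 called 0 to 3).

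**Figure D3:**
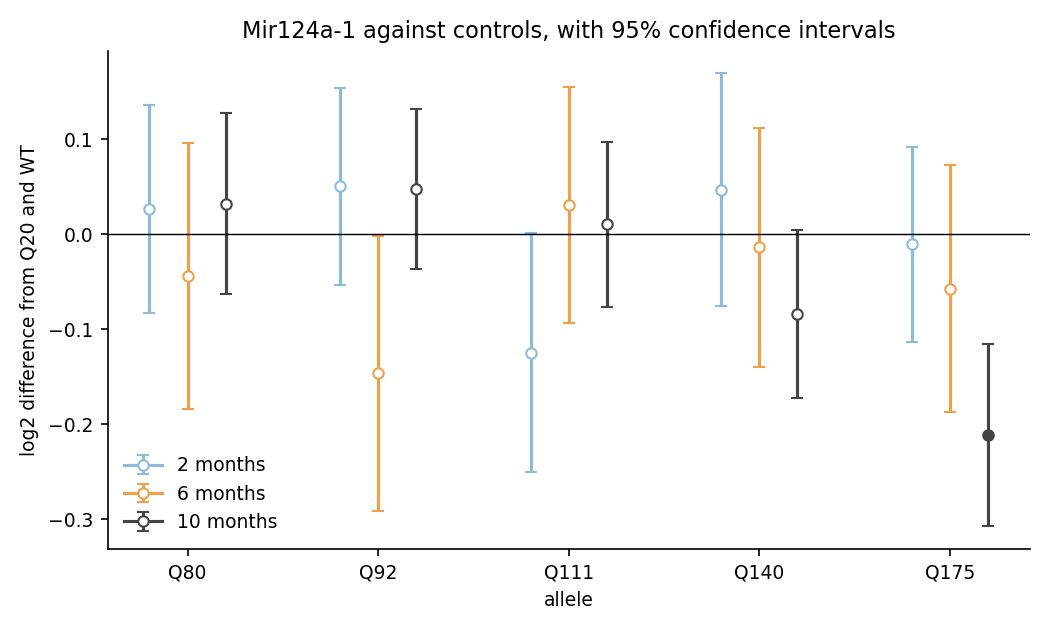
Log2 difference of Mir124a-1 from Q20 and WT for each allele at 2m (blue), 6m (orange) and 10m (dark), with 95% confidence intervals from edgeR (filled point: adjusted p under 0.05). At 6m the Q175 point is in effect against WT alone and those of the other alleles against Q20 alone. The only filled point is Q175 at 10m, at -0.21.

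With repeat length as a number, the slope of Mir124a-1 was called at 10m. It fell by 0.11 on the log2 scale per 100 CAG repeats (SE 0.03, 95% interval -0.17 to -0.05, adjusted p = 0.00964, rank 23 of 470), where 11.1% of transcripts were called. Without the Q175 libraries the slope was -0.04 (adjusted p = 0.796), so the call rests on that allele. At 2m the slope was -0.01 (95% interval -0.07 to 0.05, adjusted p = 0.988, with 0.213% called) and at 6m -0.02 (95% interval -0.09 to 0.05, adjusted p = 0.901, with 1.28% called). Statistics of 6m and 10m combined gave an adjusted p of 0.0375 for the slope (14.9% called) and of 0.00865 for Q175 (16.6% called). The combined slope was lost in several alternatives, among them the fit without the batch term (adjusted p = 0.0724) and the fit without any 1 of 10 libraries of these ages (adjusted p up to 0.0886). These were Q175 M3, Q20 M2 and Q20 M3 of 6m and Q175 F1, F4, M1, M3 and M4 and WT F1 and M2 of 10m.

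The slopes at different ages were also compared with each other. The slope of Mir124a-1 at 10m minus that at 2m was -0.09 (95% interval -0.18 to -0.0014, edgeR adjusted p = 0.432, with 2.34% called), and 10m minus 6m was -0.08 (adjusted p = 0.517, with 0.638% called). A difference in CAG dependence between ages was thus not shown for this gene. Averaged over genotypes, Mir124a-1 at 10m differed from 2m by -0.02 (95% interval -0.07 to 0.03, adjusted p = 0.533), while 49.1% of transcripts were called in that contrast, in which age and batch cannot be told apart.

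No difference between females and males was called for Mir124a-1. The female minus male log2 difference was 0.02 at 2m (95% interval -0.05 to 0.08), 0.02 at 6m (-0.05 to 0.10) and -0.01 at 10m (-0.07 to 0.05), with edgeR adjusted p = 0.899, 0.964 and 0.913 (0.426%, 0% and 0% of transcripts called, with 47, 32 and 63 at an unadjusted p under 0.05). At 10m the slope was -0.11 in females alone and -0.08 in males alone. Neither was called in these smaller fits (adjusted p = 0.105 and 0.408), and in a joint fit of both sexes, with 1 set of batch terms, the female minus male difference in slope was -0.00064 (95% interval -0.12 to 0.12, where edgeR called 1.06% of transcripts). At 6m the female minus male difference in slope was 0.16 (95% interval 0.02 to 0.29), which did not pass after adjustment (edgeR adjusted p = 0.784).

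No genotype was called for Mir124a-3 in the main tests. Its group means ran from 72.7 CPM in Q111 at 2m to 122.0 CPM in WT at 6m. In Q175 at 10m the libraries had 62.5, 79.0 and 132.9 CPM (lowest, median and highest) and the controls 48.3, 93.0 and 125.5 CPM, and the ranges overlapped nearly throughout. The log2 difference was -0.16 (95% interval -0.43 to 0.10, edgeR adjusted p = 0.427), and leaving out 1 library gave -0.21 (without Q175 M2) to -0.09 (without Q175 M1). At 2m its slope was -0.21 (edgeR adjusted p = 0.988), while the slopes of 6m and 10m were -0.08 and -0.07. None of these passed after adjustment. On the log2 RPKM values limma called Mir124a-3 in Q175 at 10m (-0.21, adjusted p = 0.0049), where its values there follow those of Mir124a-1 by a fixed ratio. The controls themselves differed in level at 10m, with a mean ± SD of 101 ± 17.8 CPM for WT against 79.5 ± 20.5 CPM for Q20 (n = 8 each), and the difference of Q175 turned sign when Q20 was the only control (0.05).

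Mir124a-2 was near the limit of detection. Its row rounded to 0 counts in 8 libraries, which allows a level of up to 0.587 to 1.42 CPM in them (3 counts of the library total, counting error only), and its group means ran from 3.25 CPM in WT at 6m to 7.87 CPM in WT at 2m. At 6m the Q175 libraries had 4.01, 6.82 and 11.0005 CPM (lowest, median and highest) and WT 0, 3.03 and 6.05 CPM. In estimated counts these were 22.7, 32.1 and 54.8 against 0, 16.03 and 32.2. All 8 Q175 libraries lay above the WT median and 4 above every WT library. The log2 difference was 1.11 (SE 0.36, 95% interval 0.37 to 1.85), which did not pass after adjustment (edgeR adjusted p = 0.104). At 10m it was -0.14 against Q20 and WT (edgeR adjusted p = 0.83), and 0.07 against WT alone, the control in effect at 6m. At 2m it was -0.24 against Q20 and WT (edgeR adjusted p = 0.972). Leaving out Q175 F4 gave -0.45 at 2m, and leaving out Q175 F3 gave -0.10. A rise of the 6m size thus did not recur. These values also depend on how reads were assigned among the copies.

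**Figure D4:**
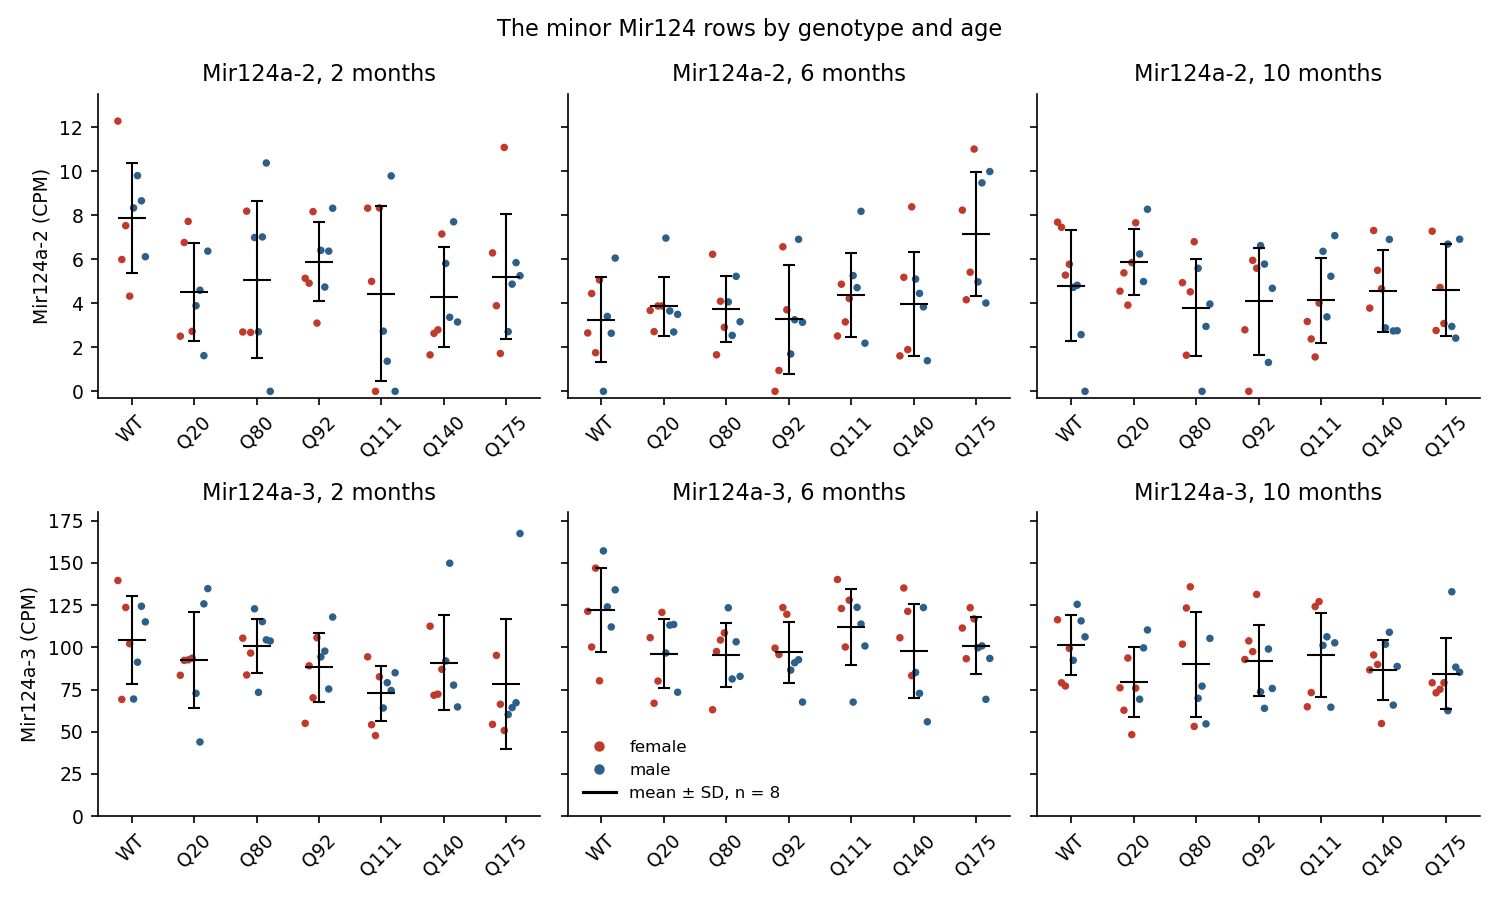
Mir124a-2 (upper row) and Mir124a-3 (lower row) in CPM for each library by genotype at 2, 6 and 10 months (females red, males blue; bars show the mean and SD of 8 libraries). The Q175 libraries of 6m hold 4.01 to 11.0005 CPM of Mir124a-2 against 0 to 6.05 CPM in WT, and the groups of Mir124a-3 overlap at every age.

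The share of reads assigned to each copy was tested directly as a log2 ratio of counts, Q175 against controls, with 2-sided exact permutation tests adjusted over 15 ratios (pseudocount 0.5). The ratio of Mir124a-2 to Mir124a-1 differed by 1.63 at 6m (SE 0.73, exact p = 0.00575, adjusted p = 0.0862) and by 1.11 with a pseudocount of 5. The size rests on WT M1, which held 0 counts of Mir124a-2 so that the pseudocount set its ratio, and without it the difference was 0.97 (SE 0.32, exact adjusted p = 0.156). Without WT F4 or WT M4 it passed (exact adjusted p = 0.0466 and 0.0256). It had the opposite sign at 2m (-0.26, exact adjusted p = 0.752) and was 0.16 at 10m (adjusted p = 0.842), which turned to -0.15 without WT M4. The ratio of Mir124a-3 to Mir124a-1 differed by -0.37 at 2m, -0.20 at 6m and 0.12 at 10m (SE 0.22, 0.11 and 0.15, exact adjusted p = 0.271, 0.271 and 0.752). Without Q175 M4, which had the highest Mir124a-3 level of its group, the 2m value was -0.55 (exact adjusted p = 0.0431). With all libraries, none of the ratios between copies passed the test after adjustment.

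Mir3078, the other microRNA of the Mir124a-1 host gene, was also lower in Q175. At 10m the Q175 libraries had 24.3, 31.3 and 42.3 CPM (lowest, median and highest) and the controls 35.0, 38.2 and 47.0 CPM, and 6 of 8 lay below every control. It fell by 0.29 on the log2 scale (SE 0.07, 95% interval -0.44 to -0.14, edgeR adjusted p = 0.01). Within the 3 batches the difference in mean log2 CPM was -0.43, -0.06 and -0.42, so 1 batch held little of it. At 6m it held 24.4, 36.4 and 38.5 CPM in Q175 and 38.2, 47.8 and 51.6 CPM in WT, and 6 of 8 lay below every WT library. There it fell by 0.39 (SE 0.10, adjusted p = 0.0325), a call that was lost without any 1 of Q175 M2, WT F4, WT M3 or WT M4 (adjusted p = 0.0703, 0.0662, 0.0565 and 0.0542), and in the fits with no filter on low counts, no batch term, the replicate block or limma. Of the 48 libraries of other genotypes at 6m, 13 lay below the Q175 median of Mir3078. Its 6m means were 45.9 CPM in WT and 34.8 CPM in Q175. In the groups outside block A they ran from 35.8 CPM in Q111 to 39.8 CPM in Q92, and the WT mean was the highest. WT and Q175 make up block A. Genotype and block thus cannot be told apart when either is set against the other groups, as in the count of 13 above. At 2m the Q175 difference was 0.03 (adjusted p = 0.987). The ratio of Mir3078 to Mir124a-1 differed between Q175 and controls by 0.03 at 2m, -0.34 at 6m and -0.10 at 10m (SE 0.13, 0.15 and 0.11, exact permutation adjusted p = 0.842, 0.156 and 0.611), so a change of one relative to the other was not shown. The 10m call of Mir3078 was lost with Q20 as the only control (adjusted p = 0.223).

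Mir124 was next set against other abundant neuronal families. The log2 ratio of the Mir124 sum to the Mir128 sum at 10m ran from -2.34 to -2.03 in Q175 and from -2.30 to -1.99 in controls. Its difference was -0.07 (SE 0.04, exact permutation p = 0.116, adjusted p = 0.291). Mir128, which limits neuronal excitability, was itself lower in Q175 at 10m, and a change of Mir124 relative to it was not shown. The ratio to the Mir9 sum ran from -3.20 to -2.70 in Q175 and from -2.91 to -2.48 in controls. Its difference was -0.17 (SE 0.08, exact p = 0.0339), which did not pass after adjustment (adjusted p = 0.17), and was -0.27, -0.16 and -0.03 within the 3 batches. At 2m and 6m these ratios differed by -0.04 to 0.01 (SE 0.06 to 0.11).

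**Figure D5:**
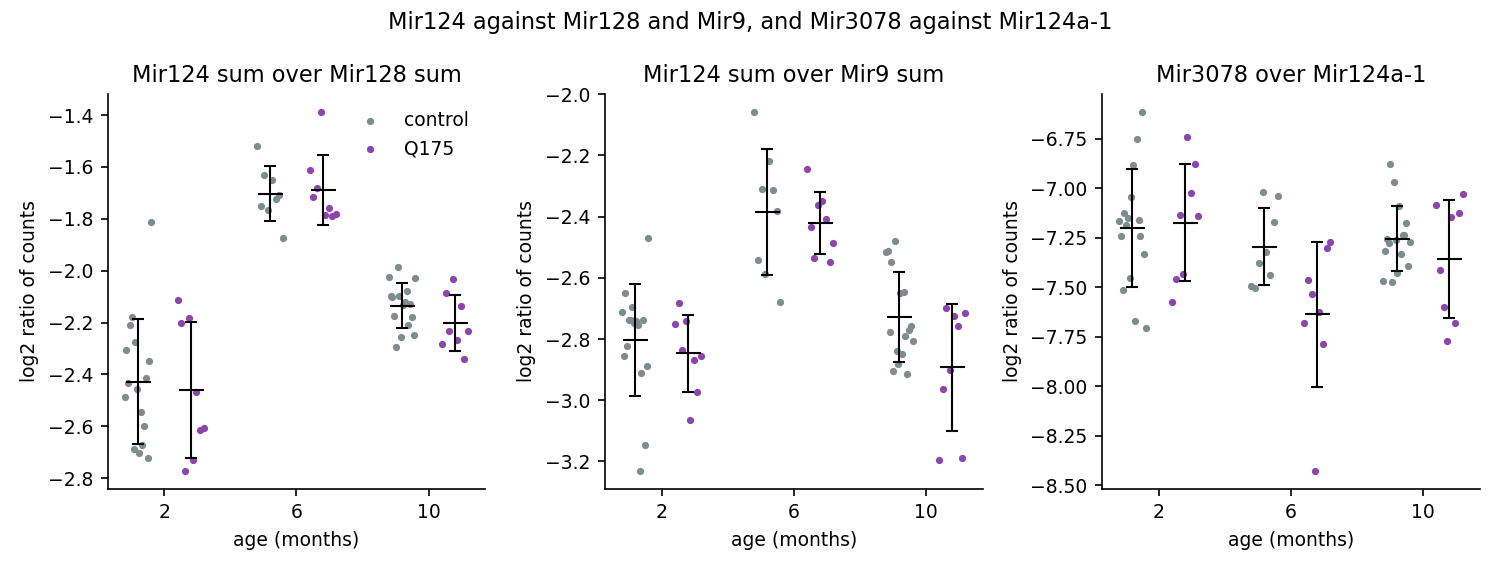
Log2 ratios of counts per library in controls (grey; Q20 and WT at 2m and 10m, WT at 6m) and Q175 (purple), with mean and SD, for the Mir124 sum over the Mir128 sum, the Mir124 sum over the Mir9 sum, and Mir3078 over Mir124a-1. At 10m the mean differences are -0.07, -0.17 and -0.10, and the points overlap in each panel.

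A list of neuron-enriched microRNAs gives the setting. It was chosen with earlier results of these data known, so the counts are a description and not a test of the list. Of its 17 tested members other than Mir124, 8 were called lower and 0 higher in Q175 at 10m, where 6.38% of transcripts were called lower and 5.53% higher. They were Mir128-1 (-0.15), Mir128-2 (-0.16), Mir138-2 (-0.12), a regulator of dendritic spines, the activity-regulated pair Mir132 (-0.25) and Mir212 (-0.30), Mir218-2 (-0.36), known from motor neurons, Mir129-1 (-0.32) and Mir129-2 (-0.14). Mir128-1 and Mir128-2 are forms of the same microRNA, as are Mir129-1 and Mir129-2, and Mir132 and Mir212 form a cluster. These rows are thus not independent members, here or in the slope below. The median log2 change over all 20 tested members, Mir124 included, was -0.14, against 0.01 over the 470 transcripts. The change of Mir124a-1 thus lay within the range of these microRNAs. Mir9-2 (-0.03) and Mir9-3 (-0.02), which act in neural progenitors as well as neurons, and Mir137 (0.06), which bears on synapse function, did not pass the test. Nor did Mir138-1, Mir149, Mir153, Mir218-1, Mir135a-1 and Mir135a-2. For the slope at 10m, where 5.32% of transcripts were called lower and 5.74% higher, 7 of the 17 were called lower and 0 higher. These were Mir128-1, Mir128-2, Mir132, Mir212, Mir218-2, Mir129-2 and Mir135a-1, with log2 slopes of -0.26 to -0.07.

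MicroRNA genes reported to carry REST sites were counted in the same way. This list, too, was chosen with earlier results of these data known. Of 11 tested members other than Mir124, 4 were called lower in Q175 at 10m and 0 higher, where 6.38% of transcripts were called lower and 5.53% higher. They were Mir132, Mir212, Mir29a (-0.18) and Mir139 (-0.14). Mir9-2, Mir9-3, Mir153, Mir29b-1, Mir135b, Mir330 and Mir346 did not pass. In Q175 at 6m, where 2.13% of transcripts were called lower, 3 of these 11 and 2 of the 17 neuron-enriched members were. In Q175 at 2m edgeR called 0 in either list, with 0 at an unadjusted p under 0.05. Of all 470 transcripts 0 were called there and only 8 had an unadjusted p under 0.05. The lists share Mir9-2, Mir9-3, Mir132, Mir212 and Mir153, so their counts are not independent of each other.

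The microRNAs whose level followed Mir124a-1 most closely were sought over all 469 other tested transcripts. After removing group and batch means, the closest over all libraries of the 21 groups were Mir218-2 (r = 0.61), Mir29a (0.59), Mir551b (0.58), Mir27a (0.53) and Mir29c (0.50). Mir124a-3 was in place 132 (r = 0.11), Mir124a-2 in place 227 (0.01) and Mir3078 in place 386 (-0.15). Their median estimated counts were 318, 13.9 and 130, against 20088 for Mir124a-1, and counting error at low counts can lower r. How far it did so here was not tested. The median levels of Mir124a-3, Mir124a-2 and Mir3078 were 93.6, 4.63 and 38.2 CPM. Those of the 5 closest ran from 160 CPM (Mir551b, r = 0.58) to 17592 CPM (Mir29a, r = 0.59). The values of the copies also rest on how reads were assigned, and in RPKM outside block A both follow Mir124a-1 by a nearly fixed ratio. A low r here thus does not show that these rows varied apart from Mir124a-1. Over the 21 group means, with age means removed, the closest were again Mir218-2 (0.86), then Mir24-2 (0.83), Mir138-1 (0.80), Mir344-2 (0.79) and Mirlet7b (0.76), while Mir124a-3 was in place 34 (0.59), Mir3078 in place 70 (0.41) and Mir124a-2 in place 126 (0.25). These correlations are descriptions. The points share library depth, scaling and, in the group means, library block A.

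Markers of other cell types were read beside the 10m result. The summed level of 7 choroid plexus and epithelial markers had a median of 6171 CPM on library totals in Q175 (5283 to 26092) and 7057 in controls (5822 to 29451). All 7 had a log2 difference below 0 (-0.80 to -0.41) and 0 passed in edgeR (1 at an unadjusted p under 0.05). The vessel sum was 18399 (16960 to 27988) against 18439 (17068 to 32137), the oligodendrocyte sum 4612 (4265 to 5486) against 4642 (3206 to 5283), the leukocyte and microglia sum 1037 (967 to 1076) against 1056 (941 to 1217), and the red blood cell sum 201 (182 to 259) against 230 (190 to 315). Of the 19 tested markers of these and of muscle, edgeR called 0 in either direction, and 2 had an unadjusted p under 0.05. Over all 470 transcripts edgeR called 11.9% in this contrast, and 121 had an unadjusted p under 0.05. With so few markers, 0 calls do not show that these classes were unchanged. The part of these classes in the Mir124a-1 result was not tested.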

How the data were processed

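RNA of hippocampus, extracted with the miRNeasy kit, was sequenced by the authors on a strand-specific single-end protocol, aligned with STAR to mm10 (GRCm38) and counted with HTSeq according to the study's methods. The submitters' processing notes name CASAVA 1.8.2. The authors deposited estimated counts and RPKM values for 1626 transcripts. A median of 51.5% of the nonzero deposited counts of a library were whole (tolerance 0.001), so they are estimated counts. The planned tests had assumed whole counts, and the values were rounded. The sources used here do not name the program that made the fractions. RPKM deposited by the authors was used only as a check.

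Identifiers were matched to GENCODE M21 (1228 of 1626). edgeR 4.0.16 (R 4.3.3) quasi-likelihood F tests with TMM scaling were run over 470 transcripts kept by filterByExpr (minimum count 10; 63 without an annotation match), 2-sided, Benjamini-Hochberg adjusted, a call being an adjusted p under 0.05. Slopes used 56 libraries an age, with WT set to 7 repeats, and each allele was set against Q20 and WT of its age, with sex and batch as covariates. DESeq2 1.42.0 and limma 3.58.1 (log2 RPKM with a pseudocount of 1) served as alternatives. Signed Z values of 6m and 10m were summed and divided by the square root of 2. SEs are the log2 change over the square root of F and are approximate. Marker sums were CPM on library totals. Correlations used log2 CPM with a prior count of 2. The Q175 and slope fits of 10m were also run on simulated counts, drawn without sex or batch effects, and no result given here rests on them.

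Genes named were the 3 members, list members called in the slope or Q175 at 10m, and the 5 most like Mir124a-1 by each correlation; Mir3078 and list members that did not pass were added after their values were seen. The members and lists were chosen with earlier results of these data known. Each library came from 1 animal. The 588 pairs of libraries within groups all differed beyond counting noise. Fewer counts limit Mir124a-2 most. Other tissues were not analysed here.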

Additional observations from a re-analysis of the deposited data

Results flagged for a closer look

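In the 21 groups, 8 libraries each, every group was searched for a library that stands apart from the other 7 for Mir124a-1, Mir124a-2, Mir124a-3 and Mir3078, 84 groups of values in all. Chance flags about 1 in 20 groups, and 5 libraries were found. Mir124a-1 was 4411 CPM in Q80 F4 at 6m, where the nearest library had 5985 CPM, and 4614 CPM in Q140 F4 at 10m, where the nearest had 5635 CPM. Both were low. The other 3 were high. Mir124a-2 was 6.96 CPM in Q20 M1 at 6m (nearest 3.88 CPM). Mir124a-3 was 167 CPM in Q175 M4 at 2m (nearest 95.2 CPM) and 133 CPM in Q175 M2 at 10m (nearest 88.3 CPM).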

How the results depend on the processing

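The fall of Mir124a-1 in Q175 at 10m was called in every alternative tried, and leaving out 1 library gave -0.228 to -0.158 (log2). With a replicate block it was -0.22 (adjusted p = 0.0109), and the 10m slope with a replicate block was -0.11 (adjusted p = 0.0098). Libraries that share a number did not deviate together (median r = -0.0089, 0.0013 and -0.0043 at 2m, 6m and 10m), so no pairing by these numbers was seen. Pairing that leaves little trace in expression would be missed by such a check. The 10m slope was not called without Q175 (-0.0363, adjusted p = 0.796), in females (-0.107, adjusted p = 0.105) or in males (-0.0833, adjusted p = 0.408), fits with fewer libraries. The slope of 6m and 10m combined was not called with library totals (-0.0540), without the low-count filter (-0.0616), without the batch term (-0.0581), without Q175 (-0.02514), without WT (-0.0823), in females (-0.02508) or in males (-0.0918), nor was Q175 of these ages combined without the batch term (-0.0835, adjusted p = 0.0761). The causes were not tested.

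Uncalled values of Mir124a-1 changed sign in the 2m slope without WT (0.0151) and in females (0.0494), in the 6m slope in females (0.0564) and with limma on RPKM and 1 block (0.00903), in Q111 at 6m with DESeq2 (-0.000428), in Q175 at 2m with Q20 alone (0.00910) and at 6m with no batch term (0.0364), and in 10m minus 2m over WT and Q20 (0.00608). Leaving out 1 library gave -0.0227 to 0.00229 for the 2m slope, -0.0354 to -0.00708 at 6m, -0.120 to -0.0892 at 10m and -0.0715 to -0.0530 combined. For Q175 it gave -0.0383 to 0.00119 at 2m, -0.0952 to -0.0292 at 6m and -0.153 to -0.108 combined.

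For Mir124a-2 signs changed in the 10m slope in males (0.276), the combined slope without Q175 (-0.0384), Q175 at 2m with Q20 alone (0.0953) and at 10m with WT alone (0.0655). Leaving out 1 library gave -0.452 to -0.103 for Q175 at 2m, -0.175 to 0.0124 for its 10m slope and -0.305 to 0.0607 for Q175 at 10m. Its 6m difference in Q175 was called with no batch term (0.99, adjusted p = 0.0445). For Mir124a-3 they changed in the 6m slope without Q175 (0.0633), without WT (0.0453), in females (0.0956), without block A (0.0623) and with limma (0.00914), in the 10m slope without WT (0.0138), in the combined slope without Q175 (0.0183), without WT (0.0296) and in females (0.0478), in Q175 at 10m with Q20 alone (0.0515) and in 10m minus 2m over WT and Q20 (-0.117). Leaving out 1 library gave -0.106 to -0.0445 for its 10m slope and -0.618 to -0.283, -0.347 to -0.206 and -0.205 to -0.0942 for Q175 at 2m, 6m and 10m. It was called in Q175 of 6m and 10m combined with WT alone (-0.30, adjusted p = 0.0134), and limma on RPKM called Mir124a-2 and Mir124a-3 at 10m, where both follow Mir124a-1 by a fixed ratio. Leaving out 1 library gave -0.0123 to 0.0615 for Mir3078 in Q175 at 2m, and its 10m slope was called in 7 of 56 such fits and with DESeq2, the replicate block or limma. Its 10m call in Q175 was lost without the low-count filter (adjusted p = 0.0826). The limma fits and the alternatives for Mir3078 were chosen after seeing the data. Within single batches signs changed for the ratio of Mir124 to Mir9 at 2m (0.0201), of Mir124a-2 to Mir124a-1 at 2m (0.201) and 10m (-0.0764 and -0.0418), of Mir124a-3 to Mir124a-1 at 10m (-0.000896) and of Mir3078 to Mir124a-1 at 2m (-0.0784) and 10m (0.116). Leaving out 1 library, also chosen after seeing the data, changed the sign or call of the ratio of Mir124 to Mir128 at 2m (-0.0832 to 0.0112) and 6m (-0.0286 to 0.0408), of Mir124 to Mir9 at 6m (-0.0771 to 0.0119), of Mir124a-2 to Mir124a-1 at 6m (0.966 to 1.85) and 10m (-0.153 to 0.246), of Mir124a-3 to Mir124a-1 at 2m (-0.548 to -0.289) and of Mir3078 to Mir124a-1 at 2m (-0.0338 to 0.0855). The low count of Mir124a-2 limits what could be detected for it.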
